A study of Mus musculus with 8 samples.

Results

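Conventional dendritic cell markers are described here through 8 genes, Batf3, Zbtb46, Clec9a, Xcr1, Itgax, Cd209a, Clec10a and Clec4a2, each represented by 1 probeset that the array annotation maps to no other gene. They were taken by name from the 21789 probesets with exactly 1 gene, of 35399 in all. The 8 arrays hold RNA of mouse bone marrow lymphoid primed multipotent progenitors (LMPPs) cultured for 4 days on OP9-DL4, a stromal cell line that presents a Notch ligand, in medium with Flt3L at 5 ng/ml and, as the labels give it, IL1 at 1 ng/ml. From these cultures came wildtype T lineage cells (Thy1+CD25+, Tcf7+/+, 2 replicates), Tcf1-deficient lineage-negative (LN) cells (Mac1-Gr1-Thy1-CD25-, Tcf7-/-, 3 mice) and wildtype LN cells (the same gate, Tcf7+/+, 3 mice). Per the labels the mice of both genotypes were of 1 line, crossed back for roughly 6 generations and kept at a mixed background. Stroma and cytokines were the same for all groups, and the ages of the mice are not stated in the sources used here. Per the labels no T lineage cells arose from deficient progenitors, so that group exists for the wildtype alone.

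Conventional dendritic cells (cDC) take up and present antigen to T cells, and they arise from bone marrow progenitors under Flt3 ligand. In the mouse they form a cDC1 branch, which depends on Batf3 and carries Clec9a and Xcr1, and a cDC2 branch, which is more varied and includes cells with the lectins Cd209a, Clec10a and Clec4a2. Zbtb46 and the integrin chain Itgax (CD11c) are used as markers of both branches, and Itgax is also made by other leukocytes. Notch ligands draw LMPPs towards the T lineage, in which the Tcf1 transcription factor acts early.

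Values are log2 levels per probeset, so a difference of 1 is a 2-fold change. A level cannot be set against that of another probeset, because probes bind with different strength. Array medians lay between 6.85 and 6.91. Arrays correlated across probesets, which are not independent replicates, with r from 0.995 to 0.997 within a group and from 0.973 to 0.983 between LN and T lineage arrays. Between deficient and wildtype LN arrays r was also 0.995 to 0.997, inside the range within groups. Of 10 T lineage markers 9 were higher in T lineage than in wildtype LN cells, led by Il2ra (CD25, log2 difference 5.26), Cd3g (6.05) and Thy1 (3.74), 2 of which are the proteins of the gate. Tcf7 was not analysed here, and the genotypes are those of the labels.

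In T lineage cells 6 of the 8 markers were lower than in wildtype LN cells, 0 were higher and 2 did not pass the test (limma, adjusted p under 0.05 over all probesets). The 6 were the surface receptors, and the 2 were the transcription factors Batf3 and Zbtb46. Of all probesets 18.0% were called in this comparison, 10.4% lower and 7.66% higher. For the same 6 markers both T lineage arrays lay below all wildtype LN arrays, as for 19.8% of all probesets. The median difference of the 8 markers was -1.52, against 0.04 for all probesets. In bulk RNA, fewer cells of a type and less RNA per cell cannot be told apart. The T lineage and LN cells were sorted by different gates, so cell type and gate cannot be told apart either.

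Among the cDC1 receptors, Clec9a, a lectin that binds actin exposed on dead cells, stood at 5.19 and 5.19 in the 2 T lineage arrays, at 9.82, 9.19 and 9.22 in the 3 deficient LN arrays and at 9.52, 9.78 and 9.89 in the 3 wildtype LN arrays. Every LN array of either genotype lay far above both T lineage arrays. The group means were 5.19 ± 0.0062 (SD, n = 2) in T lineage, 9.41 ± 0.36 (SD, n = 3) in deficient LN and 9.73 ± 0.19 (SD, n = 3) in wildtype LN cells. Clec9a was 23.3-fold lower in T lineage than in wildtype LN cells, with a log2 difference of -4.54 (SE 0.17, limma adjusted p = 5.87e-08). The T lineage levels of all 6 receptors lay under the array medians, and with no detection level used their folds may be lower bounds.

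Xcr1, the receptor through which cDC1 respond to the chemokine Xcl1, stood at 5.50 and 5.82 in T lineage, at 8.41, 7.84 and 7.78 in deficient LN and at 7.85, 7.77 and 8.27 in wildtype LN arrays. The groups of the 2 genotypes overlapped and the T lineage arrays lay below both. Its log2 difference between T lineage and wildtype LN cells was -2.30 (SE 0.20, limma adjusted p = 1.90e-05), a level 4.94-fold lower in T lineage cells. Itgax stood at 6.27 and 6.27 in T lineage, at 9.61, 9.42 and 9.41 in deficient LN and at 9.64, 9.42 and 9.60 in wildtype LN arrays. The 6 LN arrays lay close together and far above both T lineage arrays. Itgax was 9.74-fold lower in T lineage than in wildtype LN cells, by -3.28 (SE 0.09, limma adjusted p = 1.75e-08), and its p ranked 4 of 21789.

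Among the cDC2-type lectins, Clec4a2, an inhibitory receptor of the DCIR family, stood at 5.33 and 5.16 in T lineage, at 7.23, 6.84 and 6.95 in deficient LN and at 6.83, 7.33 and 7.93 in wildtype LN arrays. It was 4.35-fold lower in T lineage than in wildtype LN cells, by -2.12 (SE 0.25, limma adjusted p = 0.000149). Clec10a, which binds galactose-type sugars, stood at 5.30 and 5.66 in T lineage, at 6.14, 5.90 and 5.72 in deficient LN and at 6.31, 6.33 and 6.59 in wildtype LN arrays. The 3 groups followed each other without overlap. Clec10a was 1.90-fold lower in T lineage than in wildtype LN cells, by -0.93 (SE 0.14, limma adjusted p = 0.00107).

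Cd209a, a mannose-binding lectin related to human DC-SIGN, stood at 6.57 and 6.48 in T lineage, at 6.64, 6.76 and 6.47 in deficient LN and at 6.92, 7.13 and 7.61 in wildtype LN arrays. The T lineage and deficient LN arrays shared one range and the wildtype LN arrays lay above it. It was 1.62-fold lower in T lineage than in wildtype LN cells, by -0.69 (SE 0.17, limma adjusted p = 0.0152). With T lineage array 1 left out it no longer passed (-0.74, limma adjusted p = 0.0558), nor with T lineage array 2 left out (-0.65, 0.0876) or when all 35399 probesets were fitted (0.0596), over a range of 0.0049 to 0.0876. With 1 T lineage array the spread comes from the LN groups alone, and the lone array is taken to vary like them.

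The transcription factors did not pass. Batf3, the AP-1 family factor that the cDC1 branch depends on in mice, stood at 7.67 and 7.38 in T lineage, at 7.80, 7.72 and 7.70 in deficient LN and at 7.61, 7.71 and 7.74 in wildtype LN arrays. Its difference between T lineage and wildtype LN cells was -0.16 (95% interval -0.37 to 0.05, limma adjusted p = 0.301). Zbtb46, a zinc finger factor, stood at 6.46 and 6.21 in T lineage, at 6.39, 6.41 and 6.48 in deficient LN and at 6.42, 6.45 and 6.41 in wildtype LN arrays. Its difference was -0.09 (95% interval -0.28 to 0.10, limma adjusted p = 0.544), and T lineage array 2 was the lowest array for both factors. These intervals leave out a change of the size seen for Clec9a, Itgax, Xcr1 or Clec4a2, as far as these probesets report. Zbtb46 and Clec10a were among the dimmest 40% of probesets by the mean over all arrays. A level above background was not used here, so whether a dim probeset measures its transcript is not known from these values.

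**Figure D1:**
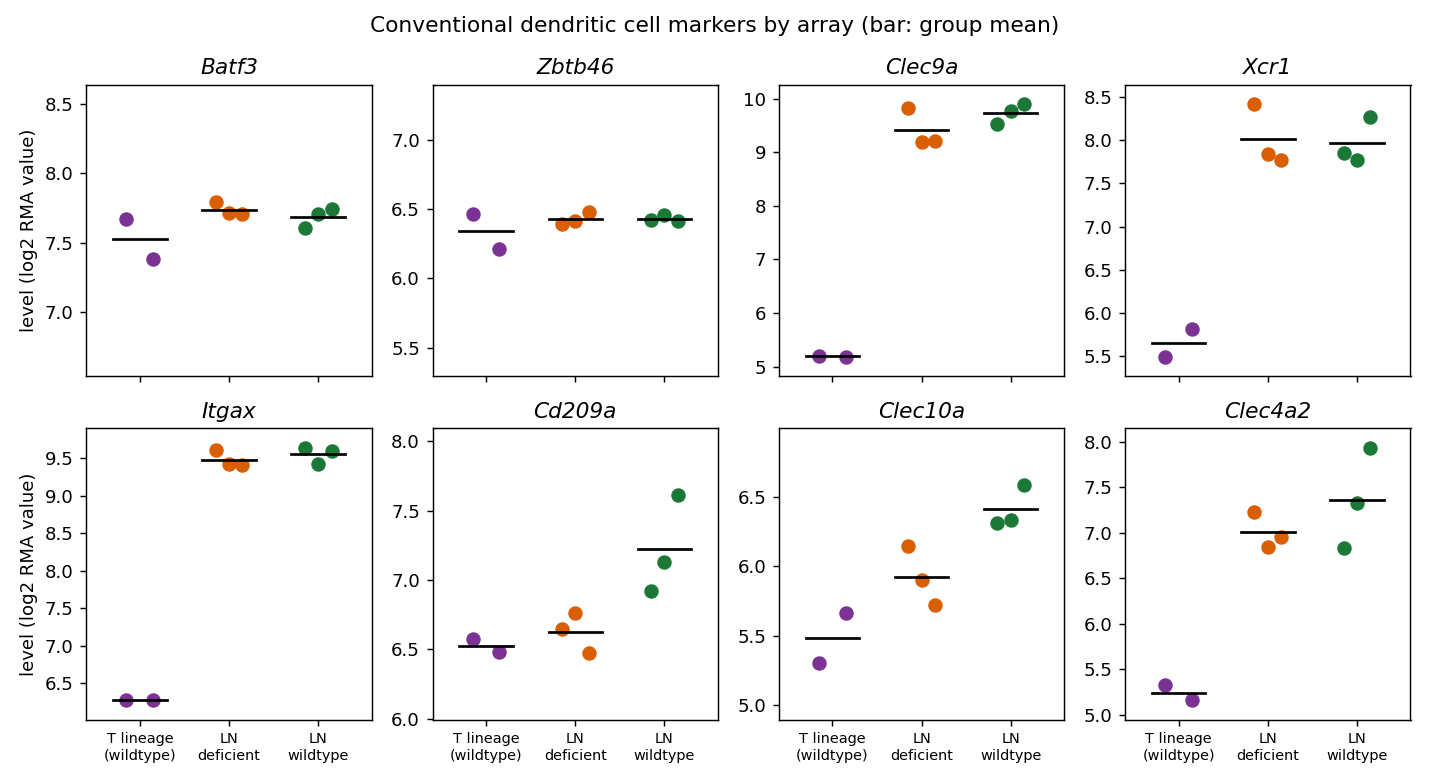
Level of each marker (y axis, log2 RMA value, each panel spanning at least 2 units) in the T lineage, deficient LN and wildtype LN arrays (1 point per array, bar at the group mean, n = 2, 3 and 3). The T lineage arrays of Clec9a lie at 5.19 while its LN arrays lie between 9.19 and 9.89, Batf3 and Zbtb46 lie at like levels in all groups, and the wildtype LN arrays of Cd209a lie above those of both other groups.

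The genes lie, in build GRCm38.p6, at chr1:191098414-191108943 (Batf3), chr2:181371009-181493262 (Zbtb46), chr6:129408862-129424764 (Clec9a), chr9:123852315-123862029 (Xcr1), chr7:128129526-128150657 (Itgax), chr8:3743395-3748984 (Cd209a), chr11:70166623-70170836 (Clec10a) and chr6:123122690-123143999 (Clec4a2). Promoter sequence is shown for Clec9a, Itgax and Xcr1, which had the largest falls, and for Cd209a, whose pattern over the groups was different. RefSeq promoters (build GRCm38.p6) matched 7 of the 8 markers. Each line gives the 250 bases before the start that the promoter table uses, 5′ to 3′ on the gene's strand, with matches to any of 3 motifs in capitals. That start is not always the outer end of the gene printed above: the Itgax window runs past the start of the printed gene span, and the Zbtb46 window, not shown, lies inside its gene at chr2:181424389-181424638. The windows shown are chr6:129408612-129408861 (plus strand) for Clec9a, chr7:128129300-128129549 (plus strand) for Itgax, chr9:123862030-123862279 (minus strand) for Xcr1 and chr8:3748985-3749234 (minus strand) for Cd209a.
Clec9a: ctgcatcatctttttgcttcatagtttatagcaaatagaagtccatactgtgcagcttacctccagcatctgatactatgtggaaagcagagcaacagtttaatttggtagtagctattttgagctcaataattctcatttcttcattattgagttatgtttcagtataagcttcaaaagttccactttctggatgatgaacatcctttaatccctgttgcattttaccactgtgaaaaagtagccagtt
Itgax: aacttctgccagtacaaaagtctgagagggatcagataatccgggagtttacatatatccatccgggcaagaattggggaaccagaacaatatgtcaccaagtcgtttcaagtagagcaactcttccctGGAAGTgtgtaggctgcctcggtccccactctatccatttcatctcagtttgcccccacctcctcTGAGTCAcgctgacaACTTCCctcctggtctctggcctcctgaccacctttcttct
Xcr1: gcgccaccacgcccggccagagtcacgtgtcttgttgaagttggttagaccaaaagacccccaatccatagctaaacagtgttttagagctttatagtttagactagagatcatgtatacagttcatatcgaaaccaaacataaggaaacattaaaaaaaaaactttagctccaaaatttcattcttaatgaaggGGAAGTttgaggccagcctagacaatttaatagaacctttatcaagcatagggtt
Cd209a: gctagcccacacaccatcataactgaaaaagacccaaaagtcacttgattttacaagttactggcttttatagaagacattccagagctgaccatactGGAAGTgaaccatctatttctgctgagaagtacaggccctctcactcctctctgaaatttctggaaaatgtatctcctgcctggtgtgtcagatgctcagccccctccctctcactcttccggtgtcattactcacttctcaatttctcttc

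The motifs, searched on both strands, were GGAAGT (a core bound by ETS factors such as PU.1), TGANTCA (AP-1, the family of Batf3) and CTTTGA (TCF/LEF). GGAAGT was found in 5 of the 7 windows (Xcr1, Batf3, Itgax, Cd209a and Clec4a2), with 2 matches in Itgax and 2 in Clec4a2, against 19.7% of all 32817 promoter windows of this length. TGANTCA was found in 2 (Itgax and the window inside Zbtb46, against 6.75% of all) and CTTTGA in 1 (Clec4a2, against 13.8%). The matched letters did not overlap each other in the 4 printed windows. The Clec9a window held none of the 3 motifs. A match is a description of letters and not of binding.

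Against deficient LN cells, T lineage cells had 4 of the 8 markers lower, 0 higher and 4 not called, where 14.1% of all probesets were called, 8.16% lower and 5.98% higher. For 6 markers, Batf3 and Clec10a beside the 4, both T lineage arrays lay below all deficient LN arrays, as for 17.1% of all probesets. The median difference of the markers was -1.10, against 0.04 for all probesets. This comparison shares its T lineage arrays with the previous one. The differences were -4.22 for Clec9a (limma adjusted p = 1.17e-07), -3.21 for Itgax (2.36e-08), -2.35 for Xcr1 (2.02e-05) and -1.76 for Clec4a2 (0.000685). Clec10a, at -0.44 (adjusted p = 0.0688), did not pass, although its T lineage arrays lay below its deficient LN arrays. It passed without T lineage array 2 (-0.62, limma adjusted p = 0.0384, the lone T lineage array being taken to vary like the other groups) and without deficient LN array 3 (-0.54, 0.0385), over a range of 0.0384 to 0.438. Cd209a differed by -0.10 (95% interval -0.47 to 0.27, adjusted p = 0.766). Batf3 differed by -0.21 (adjusted p = 0.183) and Zbtb46 by -0.09 (0.571).

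Between deficient and wildtype LN cells 0 of the 8 markers passed in limma, and 2 had an unadjusted p under 0.05. Of all probesets 0.00459% were called (1, Il2ra, -1.02, limma adjusted p = 0.0283), and 4.92% had an unadjusted p under 0.05. The median of the markers was -0.20, against -0.01 for all probesets. The 2 markers of smallest p were cDC2-type lectins whose 3 deficient arrays all lay below their 3 wildtype arrays, as did 6.01% of all probesets. Deficient LN cells had Cd209a at a mean of 6.62 ± 0.14 (SD over 3 arrays), against 7.22 ± 0.35 in wildtype LN cells, a difference of -0.59 (SE 0.15, limma adjusted p = 0.65). Clec10a averaged 5.92 ± 0.21 in deficient LN cells, against 6.41 ± 0.15 in wildtype LN cells (SD over 3 arrays each), a difference of -0.49 (SE 0.13, limma adjusted p = 0.65). Neither is a call once all probesets are counted, and over the alternatives adjusted p stayed between 0.203 and 1 for Cd209a and between 0.267 and 1 for Clec10a. The Cd209a difference was -0.40 without wildtype LN array 3 and -0.75 without wildtype LN array 1. That of Clec10a lay between -0.60 and -0.39 with single arrays left out.

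For the other markers the arrays of the genotypes overlapped. Clec4a2 differed by -0.36 (95% interval -0.84 to 0.13) and Clec9a by -0.32 (-0.67 to 0.03), each at a limma adjusted p of 0.999. The Clec4a2 value rested on single arrays, at -0.07 without wildtype LN array 3 and -0.62 without wildtype LN array 1. Clec9a lay at -0.53 without deficient LN array 1 and -0.21 without deficient LN array 2. Itgax differed by -0.07 (95% interval -0.26 to 0.11), Xcr1 by 0.05 (-0.35 to 0.44), Batf3 by 0.05 (-0.14 to 0.24) and Zbtb46 by -0.00027 (-0.17 to 0.17). Xcr1 changed sign without deficient LN array 1 (-0.15), without wildtype LN array 1 (-0.0095) or 2 (-0.05) and with array weights (-0.036). The intervals of Itgax, Xcr1, Batf3 and Zbtb46 thus bound a genotype difference to well under 2-fold, while that of Clec4a2 reaches -0.84. Those of Cd209a (-0.93 to -0.26) and Clec10a (-0.77 to -0.20) lie wholly on the negative side, but these intervals are not adjusted for the number of probesets.

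**Figure D2:**
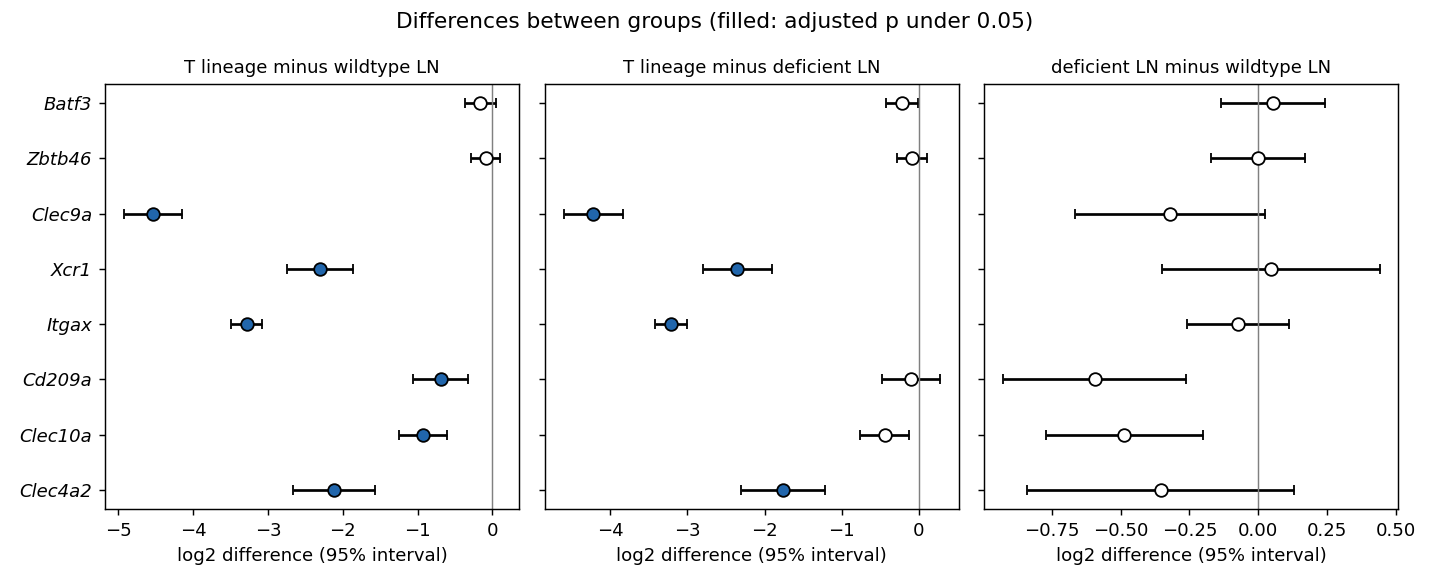
Log2 difference of each marker (x axis, with its 95% interval, x axes of different length) for T lineage minus wildtype LN, T lineage minus deficient LN and deficient minus wildtype LN cells. Filled points passed at an adjusted p under 0.05, which were 6, 4 and 0 of the 8 markers.

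Put in order of level, the 2 genotypes of LN cells were neighbours that did not differ beyond the test for any marker. For Clec9a, Xcr1, Itgax and Clec4a2 the T lineage level came below both. For Clec10a and Cd209a the call of T lineage against wildtype LN was the only one of the 3 comparisons that passed for either gene. Their means rose from T lineage over deficient LN to wildtype LN cells. The means of Clec9a, Itgax, Clec4a2 and, by a hair, Zbtb46 ran in the same order, and those of Xcr1 and Batf3 did not. For Batf3 and Zbtb46 no pair differed beyond the test.

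Wildtype LN array 3 was the highest of the 6 LN arrays for 4 of the 8 markers, Clec9a, Cd209a, Clec10a and Clec4a2, and the lowest for 0. Deficient LN array 1 was the highest for Xcr1 and Batf3. Measured from the mean of the 6 LN arrays, the mean of the 8 markers lay at 0.07, -0.18 and -0.22 in the deficient arrays and at -0.05, 0.05 and 0.32 in the wildtype arrays, so that the genotypes overlapped. Cd209a lay 0.69 and Clec4a2 0.74 above that mean in wildtype LN array 3. For the cDC1 receptors the highest arrays were one of each genotype, deficient LN array 1 (0.25 for Clec9a and 0.43 for Xcr1) and wildtype LN array 3 (0.32 for Clec9a and 0.28 for Xcr1).

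**Figure D3:**
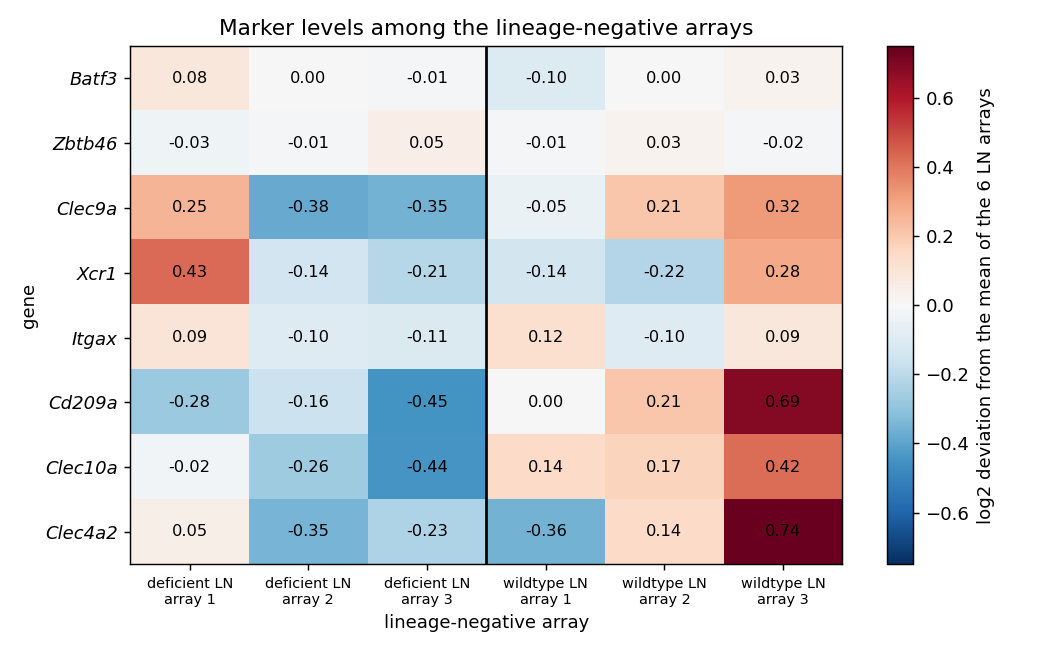
Deviation of each marker (rows) from its mean over the 6 LN arrays (colour and printed value, log2 units) in the 3 deficient and 3 wildtype LN arrays (columns). Wildtype LN array 3 reaches 0.69 for Cd209a and 0.74 for Clec4a2, and Batf3 and Zbtb46 deviate by -0.10 at most (Batf3 in wildtype LN array 1).

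The same array was also the highest of the LN arrays in the mean level of 9 of 14 lists of genes around the markers. Among them were the lists of DC growth factor receptors and signalling, DC maturation and migration, and MHC class II presentation genes. The lists of plasmacytoid DC markers, of monocyte and macrophage markers and of neutrophil markers were also among them. The lists of lineage factors, cDC1 and cDC2 genes, also among the 9, hold markers of this part, and some genes stand in several lists. The count is therefore not independent of the marker values. Over the 17 measured monocyte and macrophage markers the mean level lay between 7.76 and 7.85 in deficient and between 7.83 and 8.02 in wildtype LN arrays. Over the 14 neutrophil markers it lay between 7.43 and 7.54 in deficient and between 7.36 and 7.90 in wildtype LN arrays. Lyz2, the lysozyme of monocytes and neutrophils, stood at 10.02, 9.90 and 10.03 in deficient and at 10.00, 10.61 and 11.04 in wildtype LN arrays. Clec4a2 followed this order of arrays in the wildtype cells, but so did Clec9a, Cd209a, Clec10a and Batf3. In the deficient cells Lyz2 and Clec4a2 were not highest in the same array. The LN gate (Mac1-Gr1-) is meant to remove such cells. No gene of the monocyte and macrophage list or of the neutrophil list passed between the genotypes, and the part of such cells in the lectin values was not tested.

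Several lectins have close relatives beside them in the genome, so cross-hybridisation between family members is uncertain and was not tested. Relatives from the cDC2 list were looked at for this reason, outside the rule for named genes. Clec4a3 stood at 6.32, 6.09 and 6.24 in deficient and at 6.46, 6.79 and 7.61 in wildtype LN arrays, and Clec4a1 at 6.03, 5.76 and 5.88 in deficient and at 5.80, 6.09 and 7.05 in wildtype LN arrays. Both were highest in wildtype LN array 3, as Clec4a2 was. Cd209d stood at 6.82, 6.82 and 6.71 in deficient and at 6.83, 7.50 and 7.08 in wildtype LN arrays, where the highest array was not that of Cd209a. Mgl2, the neighbour of Clec10a in sequence, stood at 5.30, 5.23 and 5.09 in deficient LN and at 5.11, 5.18 and 5.46 in wildtype LN arrays. In T lineage arrays it stood at 5.07 and 5.10. It differed between the genotypes by -0.04 (limma adjusted p = 0.999), and between T lineage and wildtype LN cells by -0.16. Its highest array was wildtype LN array 3, as for Clec10a. All its levels lay under the array medians, so whether its probeset measures the transcript is not known.

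Other dendritic cell genes were compared between T lineage and wildtype LN cells, where 18.0% of all probesets were called, 10.4% lower and 7.66% higher. Of 14 other factors of the DC lineage 8 fell, 1 rose and 5 did not pass (median -0.53, against 0.04 for all probesets). Irf8, which specifies cDC1, differed by -3.01 (limma adjusted p = 8.80e-07), Id2, an inhibitor of E proteins, by -2.37 (9.44e-07) and Bcl6, a repressor, by -1.69 (1.04e-05). The 1 that rose was Gfi1, a repressor that T cell precursors also make, by 0.40 (limma adjusted p = 0.00996), and 0 of the list rose without T lineage array 1. Irf8 stood at 7.25 and 7.81 in T lineage, at 10.55, 10.48 and 10.36 in deficient LN and at 10.67, 10.25 and 10.72 in wildtype LN arrays. Both T lineage arrays lay below all LN arrays, and the LN arrays of the genotypes overlapped.

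Of 20 other cDC1-associated genes 14 fell, 1 rose and 5 did not pass (median -1.10). Ifi205, an interferon-inducible gene, differed by -4.52 (limma adjusted p = 4.10e-08), Cadm1, an adhesion molecule, by -2.55 (2.80e-07) and Btla, an inhibitory receptor, by -2.90 (6.02e-07). The 1 that rose was Ly75 (DEC-205), an uptake receptor also made by thymic cells, by 0.89. Of 16 other cDC2-associated genes 11 fell, 0 rose and 5 did not pass (median -1.09), and without the dimmest 40% of probesets 9 of the whole list were called lower in place of 14. Cd7, a protein of lymphoid cells as well, differed by -3.08 (limma adjusted p = 2.70e-08), the lectin Clec12a by -1.86 (5.23e-07) and the chemokine receptor Cx3cr1 by -1.17 (6.86e-05). Itgam (Mac1), which cDC2 carry and the LN gate removed, stood at 6.25 and 7.04 in T lineage, at 8.12, 7.95 and 8.07 in deficient LN and at 8.01, 7.81 and 8.34 in wildtype LN arrays.

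Of 15 growth factor receptors and signalling genes of dendritic cells 6 fell, 3 rose and 6 did not pass (median -0.07). Flt3, the receptor of the cytokine in the cultures, differed by -4.00 (limma adjusted p = 2.70e-08), Csf1r by -3.35 (1.44e-07) and Csf2rb2, a chain of cytokine receptors, by -2.44 (5.69e-07). The 3 that rose were Kit (0.58), Stat5a (0.50) and Axl (0.28), and 1 gene rose without T lineage array 2. DC maturation and migration genes fell in 5 of 19 cases, rose in 1 and did not pass in 13 (median 0.03). The costimulatory ligands Cd86 and Cd80 differed by -2.66 (limma adjusted p = 1.23e-05) and -1.07 (0.000372), and the cytokine Il15 by -1.07 (0.00168). The other 2 that passed were Ccr7 (-0.42) and, at the threshold, Cd83 (-0.23, adjusted p = 0.0497), and Il15ra rose (0.51). With any single array left out 3 or 4 in place of 5 fell, 3 without T lineage array 1, and 3 fell without the dimmest 40% of probesets. All 9 MHC class II presentation genes fell (median -3.33), led by H2-Aa (-5.37), H2-Ab1 (-4.81) and H2-Eb1 (-3.33).

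Lists of markers of other cells are set beside the same shares of all probesets, 10.4% lower and 7.66% higher. Of plasmacytoid DC markers 13 of 14 fell and 0 rose, with Siglech at -4.02, Ly6d at -1.63 and Tcf4 at -1.83. In 4 of 16 alternatives 1 of them rose, among these the fit without deficient LN array 2. Of monocyte and macrophage markers 8 of 17 fell and 0 rose, with Ms4a6c at -3.54, Csf1r at -3.35 and Ccr2 at -2.34, while Fcgr1 (-0.02) and C1qa (0.18) did not pass. Of neutrophil markers 5 of 14 fell and 0 rose, with S100a8 at -4.53, S100a9 at -3.98, Elane at -1.44, Mmp8 at -1.32 and Prtn3 at -1.21, while Ly6g did not pass. B lineage markers fell in 2 of 9 cases (Blnk -2.04, Cd79b -0.68), in 4 without wildtype LN array 1, and rose in 0. NK and innate lymphoid markers fell in 3 and rose in 2 of 11 (Klrd1 -5.71, Klrk1 -3.93, Il7r -0.95, Gzmb 2.33, Zbtb16 1.09). Stem and progenitor markers fell in 3 and rose in 2 of 8 (Flt3 -4.00, Cd34 -1.23, Meis1 -0.98, Kit 0.58, Slamf1 0.86), with 1 that rose without T lineage array 2. Stromal markers fell in 0 and rose in 0 of 10, and 1 fell without T lineage array 1. The mean level over the plasmacytoid DC markers lay between 7.38 and 7.45 in T lineage, between 8.50 and 8.75 in deficient LN and between 8.80 and 8.96 in wildtype LN arrays. The part of each cell type in the marker values was not tested.

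**Figure D4:**
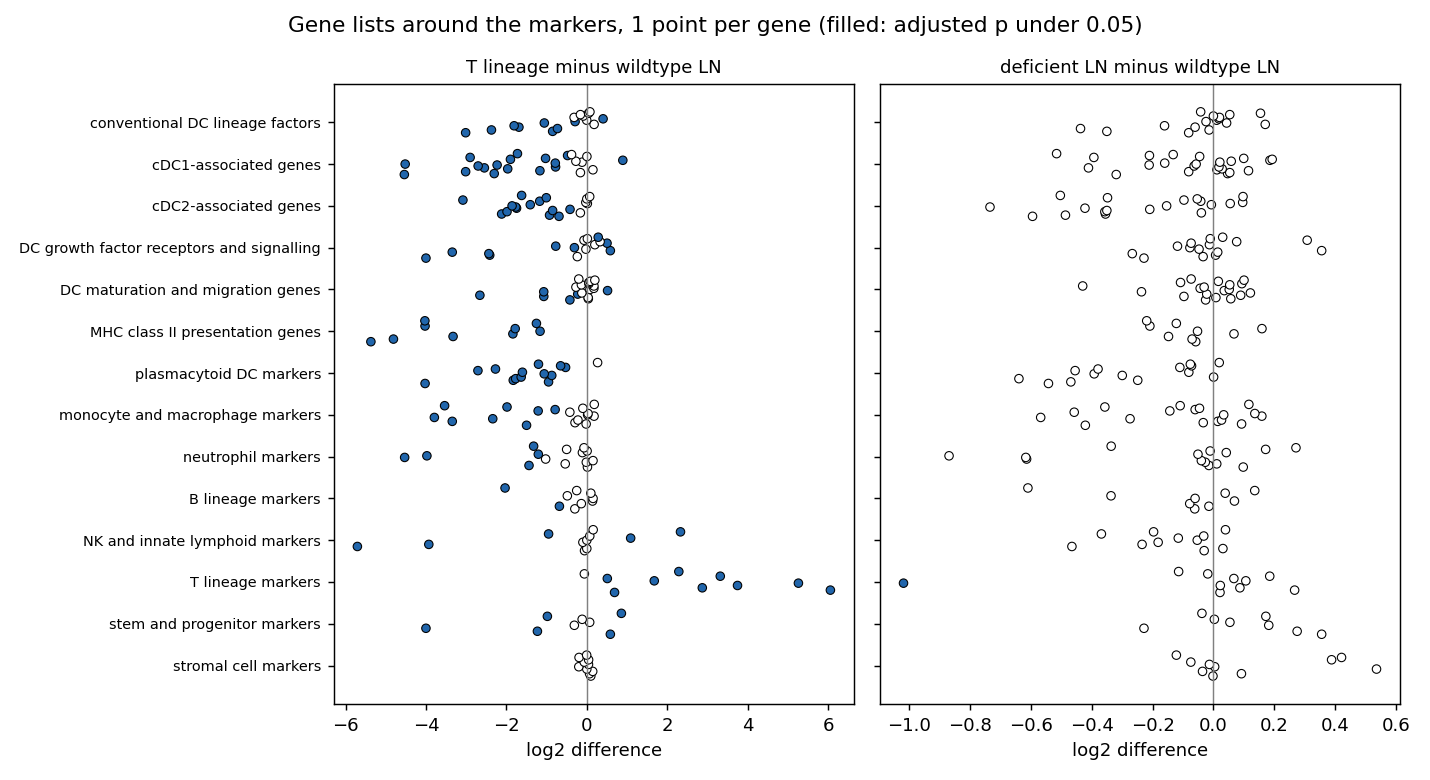
Log2 difference (x axis, 1 point per gene, filled at an adjusted p under 0.05, x axes of different length) of the 14 gene lists (y axis, the cDC markers included where a list holds them) for T lineage minus wildtype LN and for deficient minus wildtype LN cells. All 9 MHC class II genes passed on the left, and Il2ra, among the T lineage markers, was the 1 gene that passed on the right.

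Between deficient and wildtype LN cells no gene of the DC lists passed in limma. The smallest p among the lineage factors belonged to Nfil3, a factor needed for cDC1 and innate lymphoid cells in mice (-0.44, adjusted p = 0.365), and to Irf4, a factor of cDC2 (-0.35, 0.65). The 3 deficient arrays of Irf4 (6.33, 6.13 and 6.15) lay below its 3 wildtype LN arrays (6.40, 6.55 and 6.71). So did those of Nfil3 (8.27, 8.45 and 8.29 against 8.74, 8.84 and 8.74) and the cDC1-associated Cadm1 (9.49, 9.60 and 9.60 against 9.87, 9.80 and 10.25). Of all probesets 6.01% lay lower in this way. Of the full lists, markers included, 3 of 16 lineage factors, 2 of 23 cDC1 and 6 of 19 cDC2 genes did, while 1, 1 and 0 lay higher. Lower values were not particular to these lists, as 6 of 14 plasmacytoid DC markers also lay lower and 0 higher. The share of all probesets that lay higher is not given here. Irf8 (-0.08) and Id2 (-0.01) overlapped between the genotypes. Medians were -0.05 over the 20 other cDC1-associated genes, with Cadm1 at -0.41 (adjusted p = 0.65) and Btla at -0.39 (0.879), and -0.13 over the 16 other cDC2-associated genes, with Clec4a3 at -0.73 (0.731). Plasmacytoid DC markers had a median of -0.27, with Bst2 at -0.47 (0.198) and Spib at -0.39 (0.65). Kit (0.36, adjusted p = 0.701), Tgfbr1 (0.31, 0.847), Socs2 (-0.43, 0.677), Il15 (-0.24, 0.999), H2-Ob (0.16, 0.999) and H2-Eb1 (-0.15, 0.999) led the other DC lists. Among the other cell types the leading genes were Lyz2 (-0.57, 0.971), Ccr2 (-0.27, 0.979), S100a9 (-0.87, 0.778), Csf3r (0.27, 0.827), Blnk (-0.61, 0.466), Igll1 (-0.34, 0.999), Klrd1 (-0.47, 0.491), Eomes (-0.18, 0.991), Cd3g (0.27, 0.999), Cd34 (0.28, 0.999), Sparc (0.54, 0.0997) and Pdgfrb (0.39, 0.688).

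The genes whose levels ran most like a marker over the 8 arrays were sought among 1197 probesets that spanned at least 1 log2 unit. At r of 0.95 or more, 470 probesets correlated with Clec9a, 421 with Itgax, 402 with Xcr1 and 251 with Clec4a2, the markers with the largest gap between T lineage and LN cells, 11 with Clec10a and 0 with Cd209a, Batf3 or Zbtb46. For Clec9a the nearest were Ctsh, a lysosomal protease (r = 0.999), Klrk1, an activating receptor of NK cells (0.998), and Slc9a7 (0.998). For Xcr1 they were Scp2, a sterol carrier (0.997), Gatm (0.995) and C9orf72 (0.993). For Itgax they were Cd300a, an inhibitory receptor (0.999), Il6st (0.998) and Psap (0.998). For Clec4a2 they were Cysltr1, a leukotriene receptor (0.992), Itga1 (0.99) and Casp6 (0.989). For Clec10a they were B330016D10Rik (0.972), Ccdc186 (0.972) and Upk1b (0.964). For Cd209a they were Calm4 (0.947), Ngp, a granule protein of neutrophils (0.921), and Gm14207 (0.901). Batf3 ran most like Gbp5 (0.921), Dusp10 (0.915) and Lpp (0.904), and Zbtb46 most like Gbp4 (0.911), Dntt (0.886) and Zbtb20 (0.827).

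Within the genotypes a different set came out. After each genotype's mean was subtracted from the 6 LN arrays, the mean of the 8 markers ran most like Gpr82 (r = 0.99), Cd86 (0.979), Tlr3 (0.979), Naaa (0.972) and Gm6377 (0.968), among 1080 probesets that spanned at least 0.5. Tlr3, a receptor for double-stranded RNA, and Naaa, a lysosomal amidase, belong to the cDC1 list and Cd86 to the maturation list. Tlr3 stood at 8.17, 7.64 and 7.64 in deficient and at 7.59, 7.67 and 8.10 in wildtype LN arrays, high in deficient array 1 and wildtype array 3 as Xcr1 was. These values describe how 6 arrays vary together and were given no test.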

How the data were processed

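Each array was hybridised with biotin-labelled cDNA amplified from 10 ng of RNA, per the labels' protocols. The deposited values are log2 levels, 1 per probeset and array, made by the authors with RMA in Partek 6.5, per the submitters' processing notes. The log2 scale was read from the values, while the sources used here name neither RMA options nor a genome build. Of 35399 probesets, 11989 have no gene and 1621 several in the annotation, and 21789 were tested (gene identifier in RefSeq for 99.6%).

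All 8 arrays were fitted as 3 groups by lmFit and eBayes of limma 3.58.1 (R 4.3.3, 5 residual degrees of freedom), two-sided, with Benjamini-Hochberg adjustment over the 21789 probesets and calls at 0.05. On simulated data (21789 probesets, 200 changed, 10 runs) the fit recovered 97.2% of differences of 0.6 log2 between the genotypes. The changed probesets there also held differences of 1, 2 and 4 log2, and many such calls ease the adjusted threshold. In the real genotype comparison 1 probeset was called, so this share does not tell how often such a difference would pass in it. A detection level was not used, and the number of arrays sets the precision. The LN arrays are of separate mice per the series' design text, which does not say so of the 2 T lineage arrays. Their titles call them biological replicates.

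The 14 lists held 202 symbols, 186 measured: conventional DC lineage factors, cDC1-associated genes, cDC2-associated genes, DC growth factor receptors and signalling, DC maturation and migration, MHC class II presentation, and markers of plasmacytoid DC, monocytes and macrophages, neutrophils, B lineage, NK and innate lymphoid, T lineage, stem and progenitor and stromal cells. A gene with several probesets was counted by the one of smallest p between T lineage and wildtype LN cells. Named were all markers, up to 3 called genes per list of smallest p in that comparison, and the 2 of smallest p between the genotypes, and for likeness the 3 or 5 highest Pearson correlations; single genes outside this rule that a count, a family or the sort called for were named after their values were seen. The markers, lists and alternatives were chosen with earlier results of these data known. Alternatives were a filter on dim probesets, a second quantile normalization, array weights, fits of 2 groups, an intensity trend, a robust prior, all probesets, the replicate number as a block and leaving out each array.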

Additional observations from a re-analysis of the deposited data

How the results depend on the processing

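Under 16 alternatives the count of markers called stayed at 0 between deficient and wildtype LN cells, between 5 and 6 for T lineage against wildtype LN cells and between 4 and 5 for T lineage against deficient LN cells. The count of all probesets called for T lineage against wildtype LN cells lay between 2680 and 4180 (main 3928). Between the genotypes 1 probeset was called, and the count was 3 after a second quantile normalization, 6 when arrays were weighted, 2 with only these groups fitted, 3 with an intensity trend, 0 with all probesets of the table (Il2ra then at adjusted p = 0.268) and 0 with the replicate block (0.151), where limma gave 1071 at an unadjusted p under 0.05 without them. Leaving out single arrays gave 0 to 12, with 12 without wildtype LN array 1 and 0 without deficient LN array 3 or wildtype LN array 3. Without wildtype LN array 2 Il2ra was not called (adjusted p = 0.138) and 1 other probeset was. Zbtb46 changed sign with array weights (0.017) between the genotypes and lay between -0.024 and 0.017 when single arrays were left out. Against T lineage array 1 alone it was 0.036 for wildtype LN and 0.036 for deficient LN cells, in ranges of -0.22 to 0.036. Xcr1 between the genotypes was -0.036 with array weights and lay between -0.15 and 0.20 when arrays were left out. Of 378 marker values under alternatives 363 kept direction and side of the threshold. The filter on dim probesets removed Zbtb46 and Clec10a, so the marker counts under it are over fewer than 8 markers. Same-numbered deficient and wildtype LN arrays deviated together with r of -0.13, 0.02 and 0.04, T lineage and deficient LN arrays with -0.14 and -0.25, and T lineage and wildtype LN arrays with 0.16 and 0.12, where 2 T lineage arrays deviate as mirror images. The numbers were not taken to pair the arrays, since not every pair exceeded 0.1, and the replicate block changed no call among the 8 markers. Signal over background was not known, so dim probesets such as Zbtb46 set the limit.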
